A study of Oryza sativa with 12 samples.

Results

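Sugar transporter genes were followed in roots and shoots of 21-day-old rice plants of OX6, an overexpressor of Zaxinone Synthase (ZAS), a carotenoid cleavage enzyme, and of the wild type Nipponbare (WT). A gene was counted as a member when its description in the deposited table held the Pfam domain PF00083 (sugar and other transporter) or PF03083 (SWEET/MtN3), or when its first protein name was a sucrose transport protein. The domain PF00083 gave 82 members, PF03083 gave 22 and the name alone gave 6, together 110 of 57501 gene models. A further 14 models with that domain were phosphate transporters by name and were left out.

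The plants were grown hydroponically, and polyadenylated RNA was sequenced from 4 groups, OX6 root, WT root, OX6 shoot and WT shoot, with 3 libraries each. OX6 is 1 line, and what ZAS does in it cannot be told apart from other features of that stock. The sources used here do not name the promoter of the transgene. Nor do they state whether replicate libraries were made from separate plants, and the spread behind each p-value may therefore be technical. In bulk organs, fewer cells of a type and less RNA per cell cannot be told apart.

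Sugar made in leaves moves to roots and other sinks mainly as sucrose. SWEET proteins are facilitators that let sucrose or hexoses cross a membrane down their gradient, and sucrose transport proteins (SUT) are proton symporters that load sucrose into phloem or release it from vacuoles. Sugar transport proteins (STP) and other hexose carriers take up glucose and related hexoses with protons after sucrose has been split in the cell wall. Polyol and inositol transporters carry sugar alcohols. Monosaccharide-sensing proteins load sugars into vacuoles, carriers named ERD6-like are known in Arabidopsis for glucose release from vacuoles, and plastidic glucose transporters release glucose from starch breakdown.

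By the names in the file, which are those of the closest homologue, the 110 members were 32 hexose transporters, 22 SWEETs, 18 polyol transporters, 8 organic cation transporters, 7 monosaccharide-sensing proteins, 6 sucrose transporters, 6 ERD6-like transporters, 4 plastidic glucose transporters, 3 inositol transporters, 2 xylose symporter-like proteins and 2 other carriers of the domain. The organic cation transporters share the domain and are not known as sugar carriers. One of the 2 others, LOC_Os11g42420, is named as a nuclear pore protein. A protein name was given for 109 members, and 74 shared their name with another member, so loci are identified by their LOC_Os number throughout. Coordinates are those of the file, whose genome build is not given in the sources used here.

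Total counts were 32269044 to 62910092 per library. ZAS (LOC_Os09g15240 from background knowledge) had 12637, 13559 and 14246 counts in OX6 roots against 120, 124 and 109 in WT roots, and 64950, 51763 and 53572 in OX6 shoots against 5, 26 and 7 in WT shoots. Photosynthetic shoot markers, 34 genes, took 0.011 to 0.0196% of counts in roots, and 3 root markers took 0.0018 to 0.00358% in shoots against 0.861 to 0.987% in roots. The 34 were taken by name, and most of those tested were higher in WT shoots. However, LOC_Os07g36090 had 33.2 CPM in WT roots and 31.8 CPM in WT shoots, and LOC_Os09g30350 had 21.1 and 11.1 CPM. The root share includes such genes and does not measure leaf material in roots. Levels below are CPM, counts scaled to library size with TMM factors over all 12 libraries, and levels of different genes are compared only as CPM per kilobase (kb) of gene model. "Called" means an adjusted p under 0.05 in edgeR's quasi-likelihood test, with Benjamini-Hochberg adjustment over all genes tested.

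Of the 110 members, 85 averaged at least 1 CPM in some group. There were 73 in OX6 roots, 74 in WT roots, 72 in OX6 shoots and 72 in WT shoots, and 8 members had no count in any library. Summed over all members, the 3 OX6 root libraries held 2302, 2261 and 2290 CPM, against 2183, 2187 and 2137 CPM in WT roots. The OX6 shoot libraries held 2658, 2581 and 2631 CPM and the WT shoot libraries 3010, 2939 and 2632 CPM. The root sums of the genotypes did not overlap (means of 2284 CPM in OX6 and 2169 CPM in WT), and the shoot sums did. Neither difference of sums was tested. The 5 most abundant members per gene length held 31.3% of the summed CPM per kb in OX6 roots, 29.5% in WT roots, 32.9% in OX6 shoots and 35.9% in WT shoots.

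The first comparison asked which carriers each organ used in the wild type. Hexose carriers had the larger summed level in roots, and SWEETs, sucrose transporters, polyol transporters and plastidic glucose transporters had larger summed levels in shoots, but the sums follow the most abundant genes of a class and counts of genes did not always point the same way. Of 92 members tested, 78 (84.8%) were called between WT root and WT shoot, beside 73% of all genes tested, and 39 were higher in roots (37.6% of all genes were) and 39 higher in shoots (35.4% of all genes were). At least 2-fold, 27 members (29.3% of those tested) were higher in roots, beside 22.8% of all genes, and 29 (31.5%) were higher in shoots, beside 24.6% of all genes. The median log2 ratio of WT root over WT shoot was −0.16 for the members and 0.05 for all genes tested. In OX6, 78 members were also called between organs, beside 73.8% of all genes. The lists share 73 members, 93.6% of each, and all 73 had the same direction in both genotypes. Over all genes the lists share 19276, which are 91% of the WT list and 90% of the OX6 list, and 99.72% of those had the same direction.

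**Figure D1:**
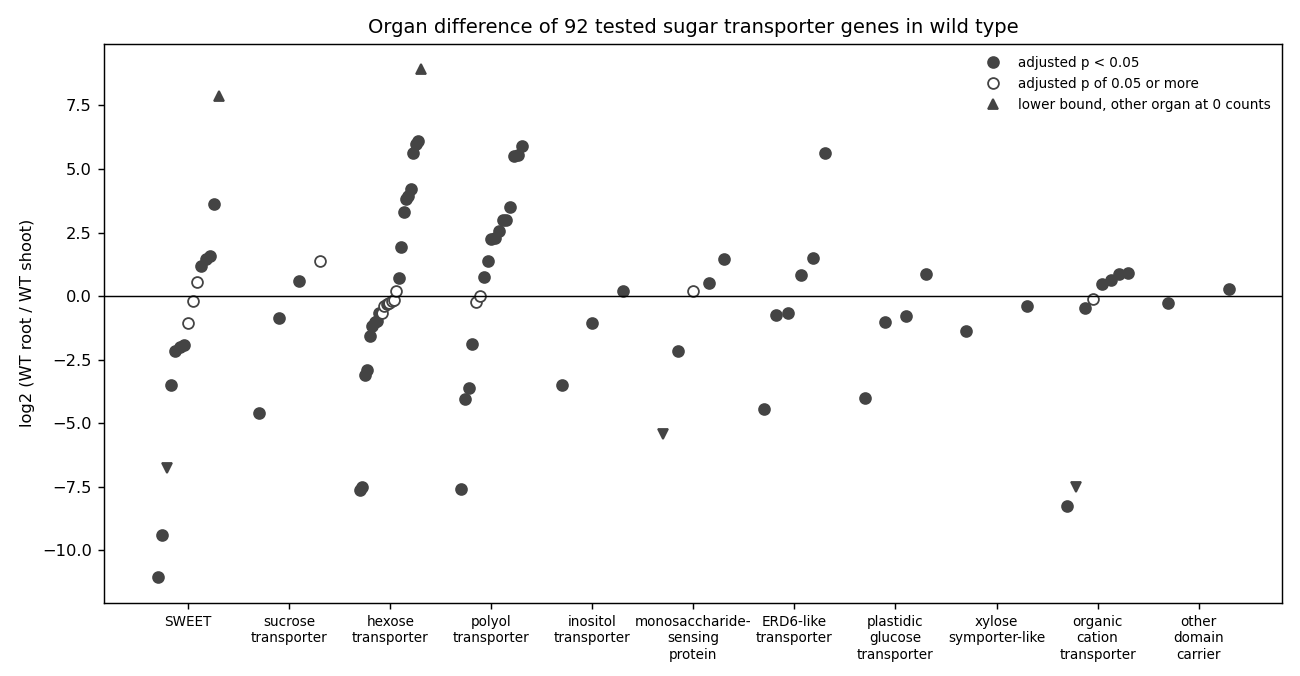
Log2 ratio of the WT root level over the WT shoot level (y axis) for the 92 tested members, by class (x axis). Each symbol is 1 gene, filled where the adjusted p was under 0.05, and triangles are lower bounds for genes with no count in the other organ. The lowest points are SWEETs, and the highest is a hexose transporter with no count in shoots.

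As sums over a class, hexose transporters held 777, 837 and 752 CPM in WT roots against 571, 567 and 450 CPM in WT shoots, 1.49 times as much in roots. By genes, 10 of 26 tested were higher in WT roots and 10 in WT shoots, beside 37.6% and 35.4% of all genes tested. Their median log2 ratio of root over shoot was −0.23. Polyol transporter sums ran the other way, with 203, 221 and 210 CPM in WT roots against 531, 553 and 452 CPM in WT shoots, 2.42 times as much in shoots. The counts of genes did not follow that sum. Of 17 polyol transporters tested, 11 were higher in WT roots and 4 in WT shoots, beside 37.6% and 35.4% of all genes. The median log2 ratio was 2.26. Of those 4, LOC_Os12g32940 and LOC_Os03g10090 are among the abundant shoot genes described below. Plastidic glucose transporters summed to 164 ± 5.85 CPM in WT roots and 358 ± 8.85 CPM in WT shoots (SD, n = 3 each), and 1 of the 4 was higher in roots and 3 in shoots. None of these pairs of sums overlapped between organs. Sucrose transporters summed to 70 ± 1.7 CPM in WT roots and 135 ± 9.62 CPM in WT shoots, and SWEETs to 265 ± 9.87 CPM in WT roots and 397 ± 31.5 CPM in WT shoots. Organic cation transporters, at 94.3 ± 3.32 CPM in WT roots and 82.9 ± 4.69 CPM in WT shoots, were 1.14 times as high in roots. By genes, 1 of 4 sucrose transporters tested was higher in roots and 2 in shoots. Among 8 organic cation transporters, 4 were higher in roots and 3 in shoots. The same shares of all genes, 37.6% and 35.4%, stand beside each of these class counts, and no count was tested against them.

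Per kilobase, the most abundant members in roots were the sugar transport protein 5 gene LOC_Os04g37990 (chromosome 4, 22611843 to 22620016) at 88.5 ± 8.3 in OX6 and 83.4 ± 9.85 in WT, and SWEET1a at 94.1 ± 13.7 in OX6 and 69.8 ± 5.22 in WT. The sugar transport protein 1 gene LOC_Os07g01560 (chromosome 7, 348475 to 353686) followed with 59.3 ± 3.04 in OX6 roots and 59 ± 3.97 in WT roots. In shoots the leading member was the polyol transporter 5 gene LOC_Os12g32940 (chromosome 12, 19896366 to 19898638), with 119 ± 9.78 CPM per kb in OX6 and 140 ± 13.7 in WT. Next stood plastidic glucose transporter 1 (LOC_Os09g23110, chromosome 9, 13666487 to 13671302), at 83.9 ± 2.57 in OX6 shoots and 94.9 ± 2.57 in WT shoots. The vacuolar loader monosaccharide-sensing protein 2 (LOC_Os02g13560, chromosome 2, 7273033 to 7278272) had 68.2 ± 8.03 CPM per kb in OX6 shoots and 86.6 ± 8.4 in WT shoots. SWEET1a had 76.1 ± 9.57 CPM per kb in OX6 shoots and 78.7 ± 4.7 in WT shoots, within the SDs of the monosaccharide-sensing gene, so the order of these 2 is not resolved.

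Of 22 SWEETs, 15 were tested and 12 (80%) were called between WT organs, beside the 73% of all genes above. There were 5 higher in roots (33.3%, beside 37.6% of all genes) and 7 higher in shoots (46.7%, beside 35.4%), and the median log2 ratio of root over shoot was −1.04. SWEET12 (LOC_Os03g22590, chromosome 3, 13004686 to 13008130) had 4.7, 6.82 and 3.76 CPM in OX6 roots and 7.72, 6.34 and 4.4 CPM in WT roots, against no count in any of the 6 shoot libraries. Set against the limit of 3 counts over the group that a count of 0 allows, it was at least 232-fold higher in WT roots than in WT shoots and at least 162-fold in OX6. SWEET14 (LOC_Os11g31190, chromosome 11, 18171678 to 18174478), known as a target of the bacterial blight pathogen in rice, had 17.7, 16.4 and 16.4 CPM in WT roots against 1.12, 1.09 and 1.91 CPM in WT shoots. Its level was 12.4-fold higher in WT roots, without overlap (adjusted p = 1.42e-11, edgeR).

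The other 3 root-leaning SWEETs had smaller ratios. SWEET3b (LOC_Os01g12130, chromosome 1, 6612343 to 6613905) was 3.01-fold higher in WT roots, SWEET3a (LOC_Os05g12320, chromosome 5, 7082883 to 7085033) 2.76-fold and SWEET2a (LOC_Os01g36070, chromosome 1, 19959667 to 19961992) 2.29-fold. SWEET2a was the second most abundant SWEET of roots per kilobase, with 41.5, 36.4 and 40.8 CPM in WT roots against 19, 18.4 and 14.2 CPM in WT shoots.

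At the other extreme, SWEET1b (LOC_Os05g35140, chromosome 5, 20870121 to 20873875) had 22.2, 24.2 and 24.1 CPM in WT shoots, and the 3 WT root libraries together held 1 count. The ratio of WT shoot over WT root was 3029, with a 95% counting interval of 543 to 119683. SWEET11 (LOC_Os08g42350, chromosome 8, 26725898 to 26728795), known for sugar supply to the developing rice grain, had 2 counts in all WT roots against 15.1, 11.3 and 11.6 CPM in WT shoots, a shoot over root ratio of 789 (218 to 6523). SWEET15 (LOC_Os02g30910, chromosome 2, 18454404 to 18457136) had no count in any root library against 4.02, 2.37 and 1.47 CPM in WT shoots, at least 108-fold higher in WT shoots. These intervals and limits come from counts pooled over the 3 libraries of a group. They cover counting error only and leave out the spread between libraries. The reads carry no molecular identifiers, and each was taken as independent.

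SWEET16 (LOC_Os03g22200, chromosome 3, 12729248 to 12731470) was 11.3-fold higher in WT shoots and SWEET2b (LOC_Os01g50460) 4.49-fold. SWEET4 (LOC_Os02g19820, chromosome 2, 11592220 to 11596451), a hexose carrier needed for grain filling in rice, had 26.5, 31 and 23.7 CPM in WT roots against 129, 103 and 89.5 CPM in WT shoots, 3.96-fold higher in shoots. SWEET13 (LOC_Os12g29220, chromosome 12, 17302073 to 17305326) had 7.6, 7.65 and 8.48 CPM in WT roots against 41.1, 28.6 and 20 CPM in WT shoots. It was 3.77-fold higher in shoots, and its values did not overlap between the organs. SWEET1a (LOC_Os01g65880) was abundant in both organs of WT, with 143, 124 and 141 CPM in roots against 152, 145 and 163 CPM in shoots, and was not called between them (adjusted p = 0.172, edgeR). SWEET6b (LOC_Os01g42090, chromosome 1, 23864681 to 23867313) had 4.88, 4.73 and 6.62 CPM in WT roots against 4.2, 3.78 and 3.13 CPM in WT shoots and was not called either (adjusted p = 0.0805, edgeR).

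**Figure D2:**
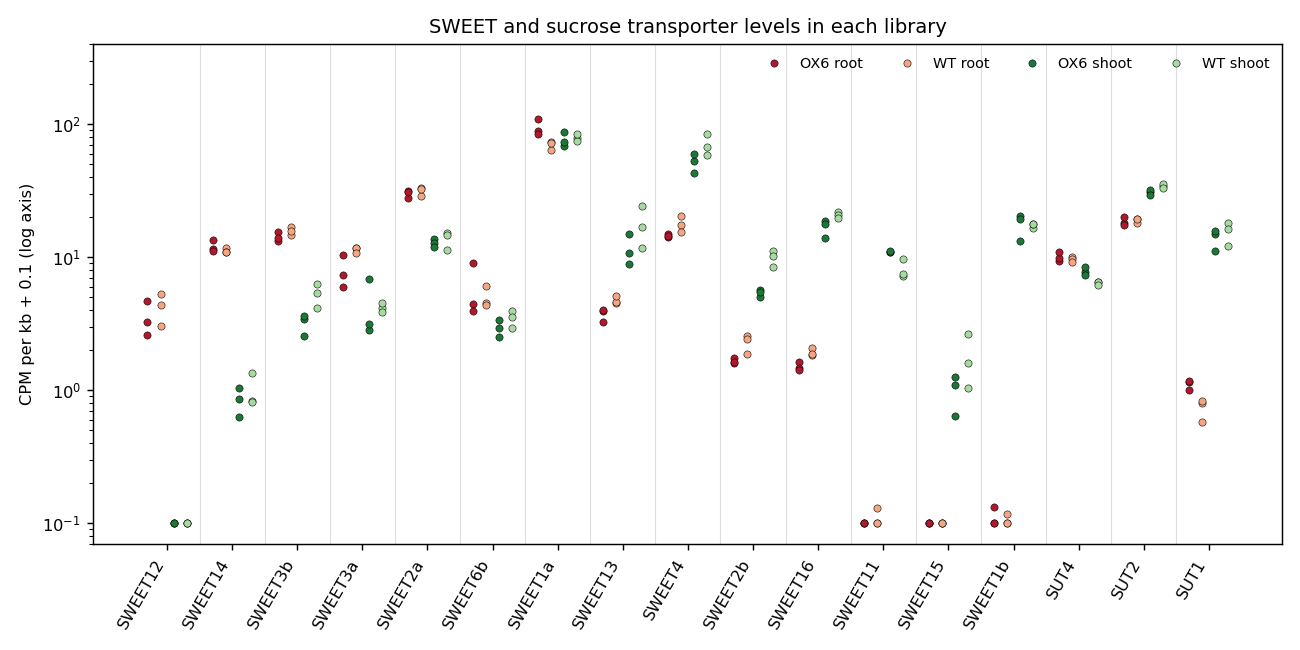
Level of each SWEET and sucrose transporter (SUT) with at least 1 CPM in a group, as CPM per kb plus 0.1 on a log axis. Each point is 1 library, coloured by group, and genes run within each family from root-higher to shoot-higher in WT. SWEET12 lies at the floor in the 6 shoot libraries, and SWEET11, SWEET15 and SWEET1b lie at or just above it in the 6 root libraries.

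Of the 6 sucrose transporters, 3 were expressed above 1 CPM. SUT1 (LOC_Os03g07480, chromosome 3, 3797691 to 3804132), the best known phloem sucrose transporter of rice, had 2.62, 2.65 and 2.23 CPM in OX6 roots and 1.72, 1.8 and 1.19 CPM in WT roots, against 36.6, 27.3 and 38.9 CPM in OX6 shoots and 44.2, 40.2 and 30.1 CPM in WT shoots. It was 24.3-fold higher in shoots of WT and 13.7-fold higher in shoots of OX6 (adjusted p = 3.06e-13 and 2.33e-12, edgeR). These 2 differences were not shown to differ (edgeR interaction 0.82, adjusted p = 0.138, but 0.0316 without WT shoot replicate 3). SUT2 (LOC_Os12g44380, chromosome 12, 27513939 to 27518251), a vacuolar sucrose exporter in rice, was 1.81-fold higher in WT shoots and was the most abundant sucrose transporter of both organs per kilobase. SUT4 (LOC_Os02g58080, chromosome 2, 35548813 to 35553460) was the one SUT called higher in WT roots, 1.51-fold, with 23.8, 23.3 and 22.2 CPM there against 15.5, 15.6 and 14.7 CPM in WT shoots. SUT5, SUT3 and a further SUT2 gene (LOC_Os07g10650) averaged at most 0.271 CPM in any group.

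Hexose and polyol carriers held the other extremes between organs. Sugar transport protein 8 (LOC_Os07g10590, chromosome 7, 5747394 to 5749826) had 13, 15.1 and 9.82 CPM in OX6 roots and 12.7, 14.2 and 11.7 CPM in WT roots, with no count in any shoot library. It was therefore at least 485-fold higher in WT roots than in WT shoots. A polyol transporter 5 gene on chromosome 11 (LOC_Os11g41870, 25175014 to 25176821) was 59.9-fold higher in WT roots. The reverse was seen for a polyol transporter 5 gene on chromosome 3 (LOC_Os03g10090, 5098238 to 5100691), with 0.496, 1.89 and 0.466 CPM in WT roots against 209, 189 and 159 CPM in WT shoots. The log2 ratio of WT root over WT shoot was −7.60, and −8.58 without WT root replicate 2, which held most of the root counts. An organic cation/carnitine transporter 2 gene (LOC_Os07g37530, chromosome 7, 22474561 to 22477187) had 2 counts in all WT roots against 5.45, 6.36 and 5.23 CPM in WT shoots, a shoot over root ratio of 373 (103 to 3083).

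The plastid, vacuole and inositol carriers had both root-leaning and shoot-leaning members. Plastidic glucose transporter 1 (LOC_Os09g23110) had 13.7, 12.9 and 12.8 CPM in WT roots against 217, 206 and 209 CPM in WT shoots, 16-fold higher in shoots. Plastidic glucose transporter 4 (LOC_Os01g04190, chromosome 1, 1843814 to 1849186) was 1.81-fold higher in WT roots. Among monosaccharide-sensing proteins, LOC_Os02g13560 was 4.47-fold higher in WT shoots, and LOC_Os10g39440 (chromosome 10, 21048271 to 21052794) was 1.44-fold higher in WT roots. ERD6-like 16 (LOC_Os03g24860) was 21.7-fold higher in WT shoots, and ERD6-like 6 (LOC_Os05g49270, chromosome 5, 28264881 to 28269493) was 1.78-fold higher in WT roots. The chloroplast-named xylose symporter-like 3 (LOC_Os03g60820, chromosome 3, 34554642 to 34560824) was 2.6-fold higher in WT shoots. Inositol transporter 1 (LOC_Os04g41460, chromosome 4, 24567103 to 24571704) was 1.16-fold higher in WT roots (adjusted p = 0.0372, edgeR), a call lost under 7 of the alternatives, with RLE scaling (adjusted p = 0.0572) or a CPM filter (0.0574) and without WT root replicate 1 or 3, OX6 shoot replicate 1 or WT shoot replicate 2 or 3 (0.0607 to 0.206). Inositol transporter 2 (LOC_Os07g05640) was 2.08-fold higher in WT shoots. In the remaining classes, LOC_Os09g38690 (chromosome 9, 22239399 to 22243494), an organic cation/carnitine transporter 7, was 1.4-fold higher in WT roots, and LOC_Os07g38400 (chromosome 7, 23081177 to 23085154), of the same name, was 1.4-fold higher in WT shoots. The unnamed domain carrier LOC_Os07g39400 (chromosome 7, 23598393 to 23604366) was 1.21-fold higher in WT roots (adjusted p = 0.0451, edgeR). That call was lost with RLE scaling, a CPM filter, DESeq2 or the replicate block (0.0584 to 0.0615). It was also lost without OX6 root replicate 2, WT root replicate 1 or 3, OX6 shoot replicate 1 or 3 or WT shoot replicate 1 (0.0518 to 0.405).

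Members lay in groups along the chromosomes, and neighbours did not always share an organ. There were 35 members in 14 runs of consecutive members of 1 class no more than 50000 bases apart. In 8 runs the called members all leaned to 1 organ, and in 4 runs they leaned to both. The 4 include the chromosome 4 run below and the pair LOC_Os07g01550 and LOC_Os07g01560. In both, the shoot-leaning gene overlaps a neighbour on the opposite strand. Neighbours were not counted over all genes in this way. The run of 5 sugar transport protein 5 genes on chromosome 4 (22594108 to 22633284) held 4 genes higher in WT roots and 1 higher in WT shoots. LOC_Os04g37970 (22594108 to 22595839) was 49.6-fold higher in WT roots and LOC_Os04g37990 9.95-fold, while LOC_Os04g38026 (22627207 to 22633284) was 2.28-fold higher in WT shoots. The last gene overlaps LOC_Os04g38010 on the opposite strand by 951 bases. The strand setting of the counting is not given in the sources used here, so reads from the shared stretch of these 2 genes cannot be told apart.

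On chromosome 2 a run of 3 sugar transport protein 5 genes (21995376 to 22017647) showed the widest step between neighbours among the runs plotted. LOC_Os02g36440 (22007473 to 22012100) had 25.1, 20.5 and 24.2 CPM in WT roots against 0.105, 0.414 and 0.542 CPM in WT shoots, 62.6-fold higher in roots. Its neighbour LOC_Os02g36450 (22013289 to 22017647) had 0.118, 0.234 and 0.0932 CPM in WT roots against 28.5, 30.8 and 29.3 CPM in WT shoots, 195-fold higher in shoots. LOC_Os07g01560, among the leading root carriers above, was 18.8-fold higher in WT roots, and the sugar carrier protein C gene LOC_Os07g01550 (chromosome 7, 343926 to 350103), which overlaps it by 1629 bases on the opposite strand, was 1.98-fold higher in WT shoots. In all, 8 members overlap another member in this way, and their split of reads is uncertain, as is that of near-identical neighbours.

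**Figure D3:**
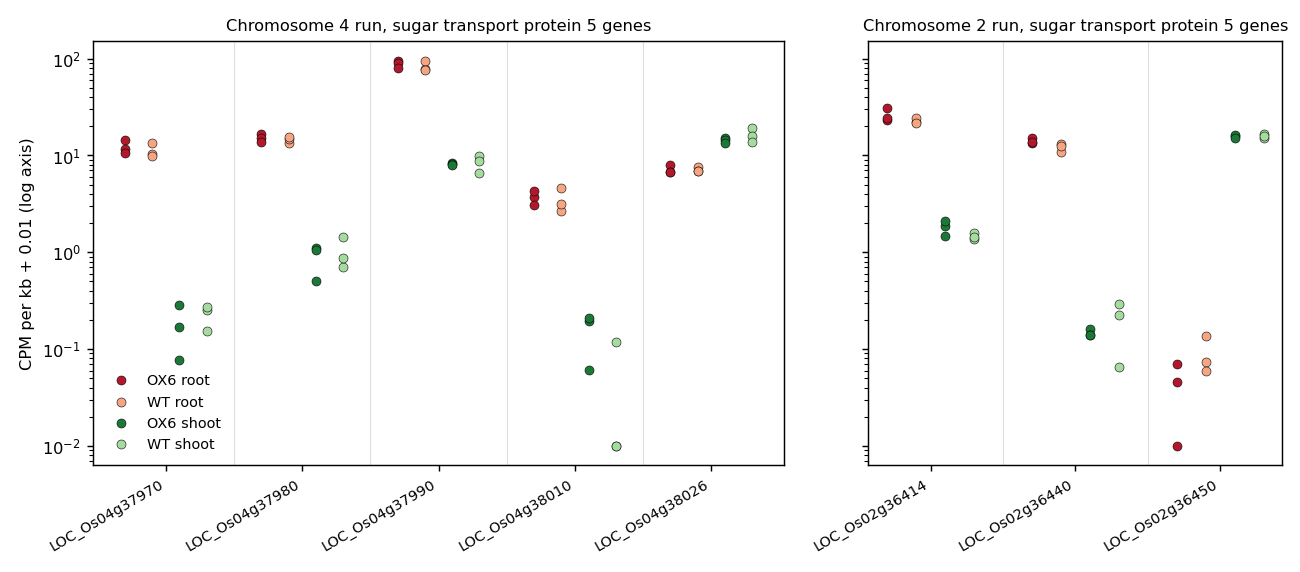
Levels of the neighbouring sugar transport protein 5 genes of the chromosome 4 run (left) and the chromosome 2 run (right), in file order along the x axis, as CPM per kb plus 0.01 on a log axis. Each point is 1 library, coloured by group. The last gene of each run is the one with higher shoot than root points.

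Between OX6 and WT roots, which were compared to see how the overexpressor differs, few sugar transporters changed. SWEET1a and inositol transporter 2 rose in OX6, and an organic cation transporter fell. These 3 were called among 83 members tested (3.61%), beside 2.83% of all genes tested (1.19% higher and 1.64% lower), and a share this near the background is no result about the family. The members' median log2 ratio of OX6 over WT was 0.03 and that of all genes 0.00, and 19 members (22.9%) had an unadjusted p under 0.05, beside 13.6% of all genes.

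SWEET1a (LOC_Os01g65880, chromosome 1, 38254049 to 38257687) had 174, 163 and 213 CPM in OX6 roots against 143, 124 and 141 CPM in WT roots. The groups did not overlap, and the level rose 1.35-fold in OX6 (log2 fold change 0.43, SE 0.0971, adjusted p = 0.0359, edgeR). In edgeR the call was lost when OX6 root replicate 1 (adjusted p = 0.114), WT root replicate 1 (0.0614), WT root replicate 2 (0.128) or WT root replicate 3 (0.0984) was left out.

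Probable inositol transporter 2 (LOC_Os07g05640, chromosome 7, 2686437 to 2689917), a carrier of the sugar alcohol myo-inositol, had 23.4, 21.4 and 18.2 CPM in OX6 roots against 15, 15.2 and 16.4 CPM in WT roots. It rose 1.35-fold in OX6 (log2 fold change 0.44, SE 0.0942, adjusted p = 0.0178, edgeR). The call was lost without OX6 root replicate 1 (0.0578), OX6 root replicate 2 (0.0677), WT root replicate 1 (0.0797) or WT root replicate 2 (0.0806). Organic cation/carnitine transporter 2 (LOC_Os07g37454, chromosome 7, 22427661 to 22429638) had 5.55, 5.83 and 5.61 CPM in OX6 roots against 10.1, 7.63 and 8.81 CPM in WT roots. It fell 1.56-fold in OX6 (log2 fold change −0.64, SE 0.124, adjusted p = 0.00809, edgeR), and the call was lost without WT root replicate 1 (0.0622). In 1 fit of all 12 libraries, which shares the spread of shoots, none of the 3 passed (adjusted p of 0.0881, 0.209 and 0.0693 in the order given).

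Of 12 SWEETs tested in roots, 4 had a positive and 8 a negative log2 ratio, with a median of −0.21. Over all 26574 genes tested, 13458 had a positive ratio. SWEET1a was the one called by edgeR and limma-voom, and DESeq2 called 2, 1 higher and 1 lower. Over all genes tested in roots DESeq2 called 1013. In edgeR 5 (41.7%) had an unadjusted p under 0.05, beside 13.6% of all genes. SWEET3a (LOC_Os05g12320) was not called in the main fit (adjusted p = 0.111, edgeR). It was called lower in OX6 with no count filter (0.023), DESeq2 (0.0424) or the replicate block (0.0483), and without OX6 root replicate 1 (0.00325). Sucrose transporters were not called in roots by edgeR, DESeq2 or limma-voom. With each tool 1 of 4 tested had an unadjusted p under 0.05, beside 13.6% of all genes in edgeR. SUT1, whose OX6 and WT root values above did not overlap, had a log2 fold change of 0.67 (SE 0.214, adjusted p = 0.131, edgeR). None of the 24 hexose transporters tested in roots was called by these 3 tools. In edgeR 4 of them (16.7%) had an unadjusted p under 0.05, beside 13.6% of all genes. The polyol transporter 5 gene LOC_Os07g39350 had 94.4, 82.6 and 86.6 CPM in OX6 roots against 73.3, 75 and 74.2 CPM in WT roots, at an adjusted p of 0.0524 in edgeR, and was called with upper-quartile scaling (0.0484), no count filter (0.0278) and DESeq2 (0.0222).

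**Figure D4:**
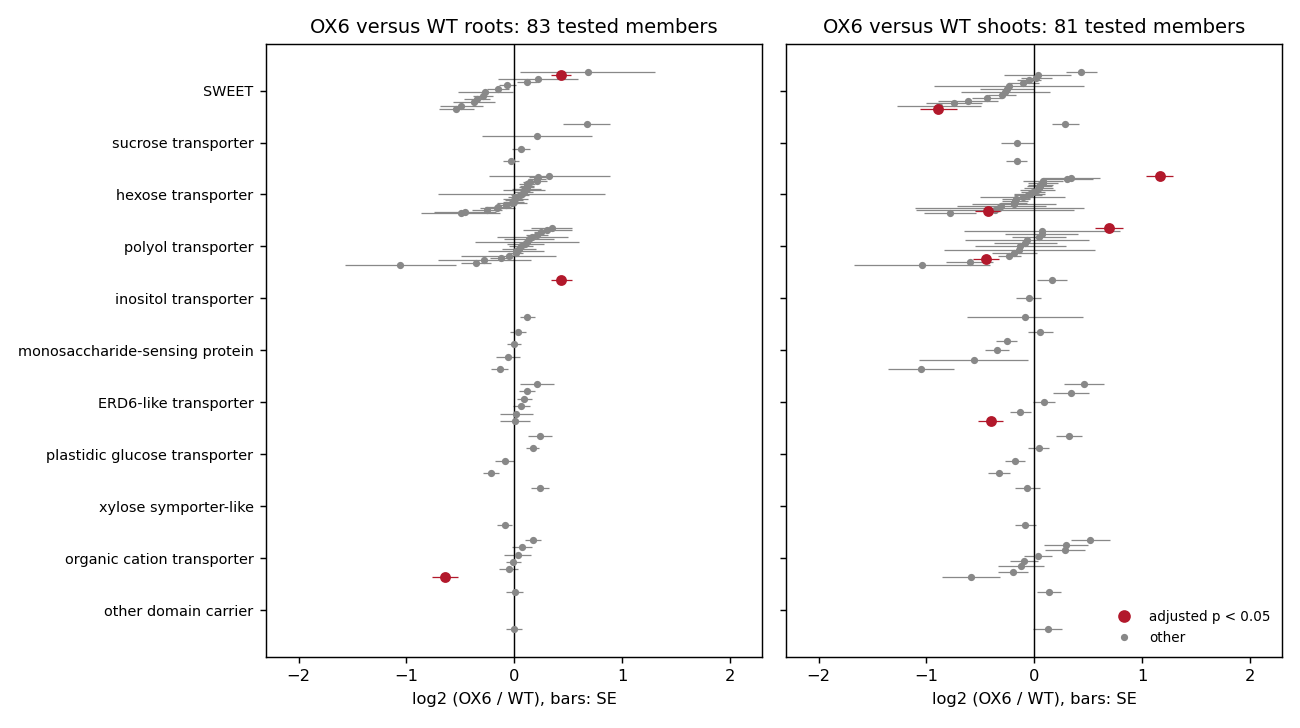
Log2 ratio of OX6 over WT (x axis, bars are SE) in roots (left, 83 tested members) and shoots (right, 81 tested members), by class (y axis). Each point is 1 gene, and red points had an adjusted p under 0.05. The 3 root calls lie within 1 log2 unit of 0, and the shoot call furthest from 0 is sugar transport protein 1 at 1.16.

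In shoots, a hexose carrier and a polyol carrier rose in OX6, and SWEET2b, an ERD6-like carrier, another hexose carrier and another polyol carrier fell. These were 6 of 81 members tested (7.41%), beside 5.64% of all genes tested, 2 higher (3.18% of all genes were higher) and 4 lower (2.46% of all genes were lower). The members' median log2 ratio of OX6 over WT was −0.10 and that of all genes −0.01. There were 23 members (28.4%) with an unadjusted p under 0.05, beside 18.6% of all genes. The 34 photosynthetic shoot markers took 13.9 to 14.5% of counts in OX6 shoots against 15.9 to 17.2% in WT shoots, without overlap, and their part in the shoot results was not tested.

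Sugar transport protein 1 (LOC_Os07g37320, chromosome 7, 22353094 to 22355806), named for a hexose and proton symporter, had 112, 98.8 and 111 CPM in OX6 shoots against 52.6, 52.7 and 38.5 CPM in WT shoots. The lowest OX6 shoot library stood well above the highest WT one, and the level rose 2.24-fold (log2 fold change 1.16, SE 0.123, adjusted p = 9.49e-06, edgeR). In roots the same gene had 45.7, 44.2 and 46.1 CPM in OX6 against 40.8, 42.6 and 42.1 CPM in WT (log2 fold change 0.12, adjusted p = 0.464, edgeR). Its genotype effect differed between organs by −1.05 on the log2 scale, root minus shoot (SE 0.148, adjusted p = 0.000558, edgeR interaction). The organ difference of this gene was called in OX6, where shoots were 2.37-fold higher, and was not called in WT (edgeR adjusted p = 0.0975, but 0.000981 without WT shoot replicate 3).

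Polyol transporter 5 (LOC_Os07g39350, chromosome 7, 23582065 to 23584548) had 71.1, 70.6 and 69.5 CPM in OX6 shoots against 40.5, 53.7 and 36.1 CPM in WT shoots. It rose 1.62-fold (log2 fold change 0.69, SE 0.128, adjusted p = 0.00271, edgeR), and both rises passed under each of the 14 alternative scalings, filters, tools and left-out libraries. Its effects in the 2 organs were not shown to differ (edgeR interaction −0.45, adjusted p = 0.193, but 0.00932 without WT shoot replicate 2). None of the members was called in both organs by edgeR or limma-voom, and DESeq2 called 1. Of all genes tested, edgeR called 2.83% in roots and 5.64% in shoots. Calls in both organs were not counted over all genes, so this count is no result about the family.

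SWEET2b (LOC_Os01g50460, chromosome 1, 28975563 to 28977354) had 6.53, 5.8 and 6.35 CPM in OX6 shoots against 9.72, 13 and 11.8 CPM in WT shoots. It fell 1.85-fold in OX6, with no overlap (log2 fold change −0.89, SE 0.171, adjusted p = 0.00358, edgeR). In roots it had 1.92, 1.75 and 1.8 CPM in OX6 against 2.08, 2.88 and 2.75 CPM in WT and was not called (log2 fold change −0.49, adjusted p = 0.27, edgeR). Of 14 SWEETs tested in shoots, 3 had a positive log2 ratio of OX6 over WT, and the median was −0.26. Over all 26251 genes tested, 12904 had a positive ratio. SWEET2b was the one called by edgeR and limma-voom, and DESeq2 called 2, both lower in OX6. Over all genes tested in shoots DESeq2 called 2027. In edgeR 6 (42.9%) had an unadjusted p under 0.05, beside 18.6% of all genes. SWEET4 had 80.9, 65.9 and 90.4 CPM in OX6 shoots against 129, 103 and 89.5 CPM in WT shoots, groups that overlapped (adjusted p = 0.0759, edgeR). It was called lower in OX6 with no count filter (adjusted p = 0.00301), DESeq2 (0.0364) and 1 fit of all 12 libraries (0.0498), and without WT shoot replicate 3 (0.00907). SWEET11 had 17, 17 and 17.3 CPM in OX6 shoots against 15.1, 11.3 and 11.6 CPM in WT shoots (log2 fold change 0.44, adjusted p = 0.0978, edgeR, but 0.0189 without WT shoot replicate 1).

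The other 3 falls in shoots were smaller, and each lost its call when any 1 of 4 libraries was left out. The polyol transporter 5 gene LOC_Os03g10090, the shoot-leaning gene described above, had 153, 133 and 123 CPM in OX6 shoots against 209, 189 and 159 CPM in WT shoots (log2 fold change −0.45, SE 0.118, adjusted p = 0.0302, edgeR). Without OX6 shoot replicate 2 or 3 or WT shoot replicate 1 or 2, its adjusted p in edgeR was 0.0753 to 0.198, and in 1 fit of all 12 libraries it was 0.259. Sugar transport protein 5 (LOC_Os04g38220, chromosome 4, 22744184 to 22748089) had 69.3, 59.2 and 76.4 CPM in OX6 shoots against 96.8, 97.2 and 82.3 CPM in WT shoots (log2 fold change −0.43, SE 0.114, adjusted p = 0.0308, edgeR). Its adjusted p was 0.0524 to 0.206 without OX6 shoot replicate 1 or 2 or WT shoot replicate 1 or 2. ERD6-like 16 (LOC_Os03g24860, chromosome 3, 14153872 to 14159202) had 58.1, 61.7 and 58.4 CPM in OX6 shoots against 91.7, 66.2 and 78.2 CPM in WT shoots (log2 fold change −0.41, SE 0.117, adjusted p = 0.0493, edgeR). The adjusted p was 0.136 to 0.196 without any 1 of the OX6 shoot libraries or WT shoot replicate 1. It was 0.0505 with RLE scaling, 0.0625 with limma-voom and 0.0641 with the replicate block. In each of the 3 genes the groups did not overlap.

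Monosaccharide-sensing proteins were not called in shoots by edgeR or limma-voom. In edgeR 3 of 5 tested had an unadjusted p under 0.05, beside 18.6% of all genes. DESeq2 called 2, both lower in OX6, and called 2027 of all 26251 genes tested. The leading gene of the class, LOC_Os02g13560, had 224, 259 and 206 CPM in OX6 shoots against 307, 308 and 258 CPM in WT shoots, which overlapped by the highest OX6 and the lowest WT library (adjusted p = 0.0854, edgeR). It was called lower with no count filter (0.0342), DESeq2 (0.0367) and 1 fit of all 12 libraries (0.0475), and without WT shoot replicate 3 (0.0224). Sucrose transporters were not called in shoots by edgeR, DESeq2 or limma-voom. With each tool 1 of 3 tested had an unadjusted p under 0.05, beside 18.6% of all genes in edgeR.

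**Figure D5:**
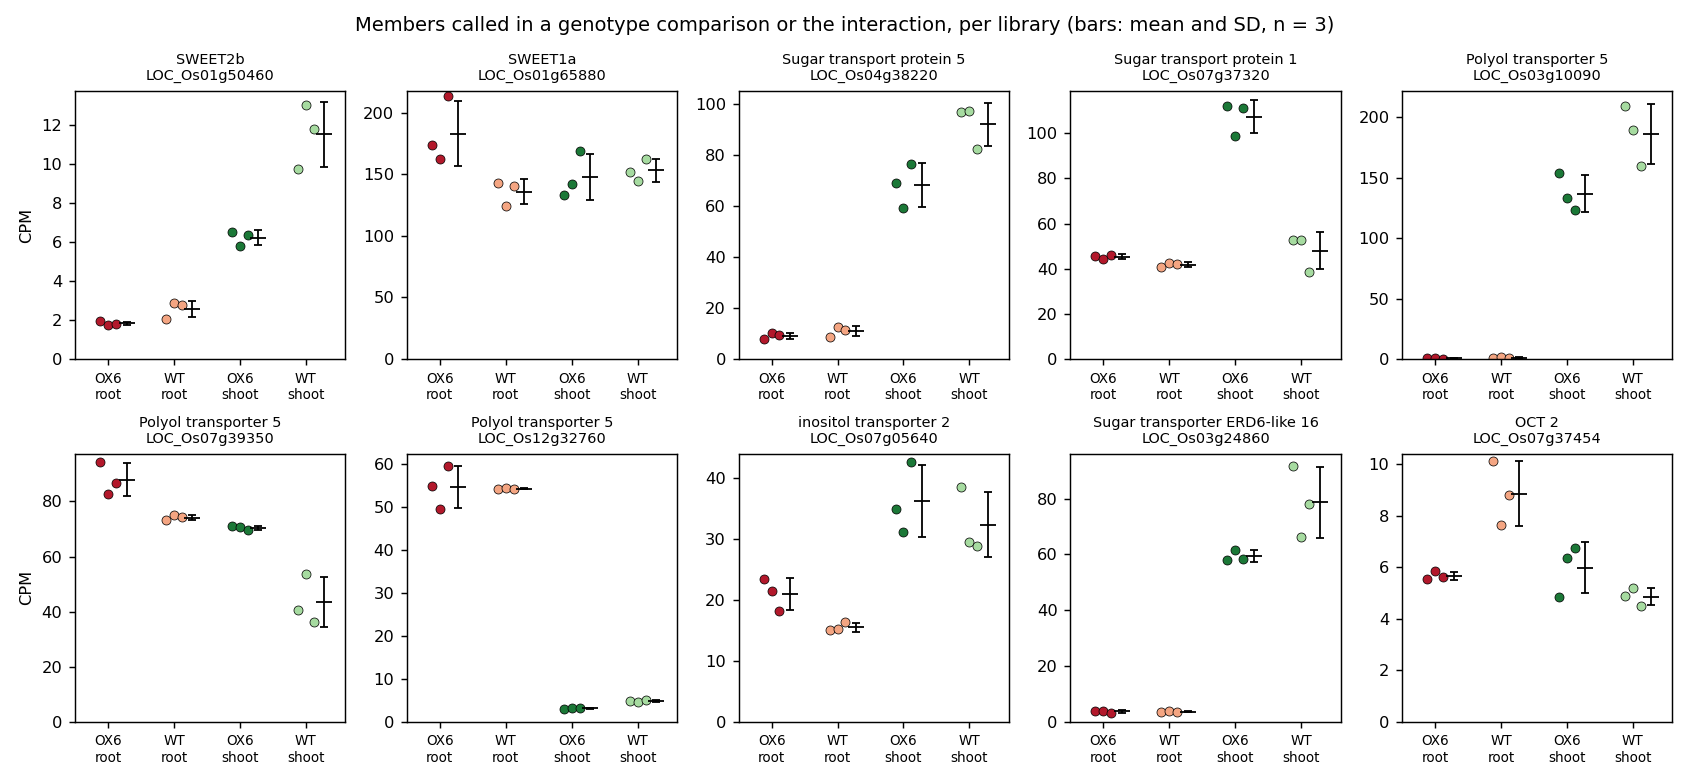
CPM in each library (points) of the 10 members called in a genotype comparison or in the interaction, by group along the x axis, with the group mean and SD (n = 3) beside the points and each y axis starting at 0. Sugar transport protein 1 (LOC_Os07g37320) at 98.8 to 112 CPM in OX6 shoots stands apart from the 3 other groups.

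The interaction asked whether the genotype effect differed between organs. Of 92 members tested, 3 were called (3.26%), beside 1.97% of all genes, and sugar transport protein 1 was described above. A polyol transporter 5 gene on chromosome 12 (LOC_Os12g32760, 19788309 to 19791483) had 54.8, 49.6 and 59.4 CPM in OX6 roots against 54.2, 54.4 and 54.1 CPM in WT roots, and 3.01, 3.24 and 3.25 CPM in OX6 shoots against 4.83, 4.59 and 4.98 CPM in WT shoots. The values overlapped in roots and not in shoots, and the effects differed by 0.61 on the log2 scale, root minus shoot (SE 0.142, adjusted p = 0.0325, edgeR interaction). The shoot difference alone was not called in the fit of shoots (log2 fold change −0.60, adjusted p = 0.132, edgeR) and was called in 1 fit of all 12 libraries (0.00287). Organic cation/carnitine transporter 2 (LOC_Os07g37454) had 4.84, 6.37 and 6.73 CPM in OX6 shoots against 4.9, 5.18 and 4.5 CPM in WT shoots, and with its fall in roots the effects differed by −0.94 (SE 0.229, adjusted p = 0.0416, edgeR interaction). The polyol call held under 9 of 19 alternatives and failed when any 1 root library other than OX6 root replicate 2, or any 1 OX6 shoot library, was left out (adjusted p of 0.0591 to 0.0904, edgeR). The organic cation call held under 5 of 19 and failed without any 1 library other than WT root replicate 2 and OX6 shoot replicate 1 (0.0568 to 0.139). Among the 72 members tested in both organs, 22 had a negative OX6 over WT ratio in both and 19 a positive ratio in both. A positive ratio in roots with a negative one in shoots was found for 23, and 8 had the reverse. This split holds called and uncalled members and was not counted over all genes, so it is no result about the family.

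The other genes of sucrose handling, a list of sucrose synthases, sucrose-phosphate synthases and phosphatases, invertases, hexokinases, fructokinases and the proton pumps that energise symport, were counted beside the carriers. In roots 0 of 59 tested were called by edgeR, DESeq2 or limma-voom, beside 2.83% of all genes called by edgeR. An unadjusted p under 0.05 in edgeR was found for 8 (13.6%), beside 13.6% of all genes. In shoots 4 of 57 were called (7.02%, beside the 5.64% of all genes above), 2 higher and 2 lower. There 16 (28.1%) had an unadjusted p under 0.05 in edgeR, beside 18.6% of all genes. The neutral/alkaline invertase 1 gene (LOC_Os01g22900, chromosome 1, 12870228 to 12874264), of enzymes that split sucrose inside the cell, had 603, 589 and 577 CPM in OX6 shoots against 345, 280 and 323 CPM in WT shoots. It rose 1.86-fold (log2 fold change 0.90, SE 0.104, adjusted p = 2.68e-05, edgeR).

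Cytosolic invertase 1 (LOC_Os11g07440, chromosome 11, 3739630 to 3743621) had 19.7, 19.7 and 21.1 CPM in OX6 shoots against 12, 15.4 and 14.5 CPM in WT shoots (log2 fold change 0.53, adjusted p = 0.0276, edgeR). The cell wall enzyme gene beta-fructofuranosidase, insoluble isoenzyme 1 (LOC_Os02g33110, chromosome 2, 19682543 to 19687250), whose product supplies hexoses to the carriers above, had 85.3, 83.2 and 89.2 CPM in OX6 shoots against 129, 120 and 101 CPM in WT shoots (log2 fold change −0.44, adjusted p = 0.0187, edgeR). Probable sucrose-phosphate synthase 1 (LOC_Os01g69030, chromosome 1, 40101404 to 40107186), of the enzymes that make sucrose, had 28.1, 26.3 and 30.6 CPM in OX6 shoots against 57.4, 37.2 and 34.8 CPM in WT shoots (log2 fold change −0.60, adjusted p = 0.0378, edgeR). None of these 4 pairs of groups overlapped. In edgeR the cytosolic invertase lost its call without any 1 OX6 shoot library or WT shoot replicate 1 (adjusted p of 0.0662 to 0.138), and the synthase lost it without the same libraries (0.0921 to 0.157) and with limma-voom (0.0559). The log2 fold change of the synthase was −0.34 without WT shoot replicate 1, the library with its highest value. The call of the cell wall enzyme was lost without any 1 OX6 shoot library or WT shoot replicate 2 (0.0686 to 0.115).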

How the data were processed

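Per the submitters' processing notes, the authors used HISAT2 2.0.5 and featureCounts 1.5.0-p3, and what they deposited is a table of unnormalized read counts for each gene model. Build, annotation release and strand setting are not given in those notes or the labels. The RefSeq gene table matched 0 members and was not used, and no sequence was printed. Groups and replicate numbers came from the sample titles, in which a letter P is not explained.

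Library totals were 32269044 to 62910092 counts. Within groups, a chi-square of replicate counts was 5.31 to 28 per gene, so all 12 libraries were kept as separate replicates. It was 19.5 to 28 in WT shoots and at most 15 in the other groups. WT shoots thus agreed least, and they enter every shoot and interaction comparison. The library of 62910092 counts was WT shoot replicate 2. Tests were run in edgeR 4.0.16 under R 4.3.3 (robust quasi-likelihood, TMM, filterByExpr with a minimum count of 10 and minimum total of 15), two-sided, with p-values adjusted by Benjamini-Hochberg over all genes and a call under 0.05. Roots and shoots had a fit of 6 libraries each. The interaction and the organ comparisons used 1 fit of 12. Variation between replicate libraries, as edgeR's common coefficient, came to 9.61% for roots, 16.2% for shoots and 13.2% for the joint fit. Whether it is biological or technical is not known, as said above. An SE is |log2 fold change| divided by the square root of F. Scripts were tested on simulated counts.

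Named are all members called between genotypes or in the interaction, the SWEETs and sucrose transporters with at least 1 CPM in a group, the most abundant member per length of each other class in each organ, the 5 largest WT organ differences each way among members with at least 5 CPM, and the called genes of the sucrose list. Neighbouring genes, the members near the threshold and those that illustrate a class were added after their values were seen. Ratios for groups with 3 counts or fewer come from pooled counts, with 95% intervals or the 3-count limit. The members and lists were chosen with earlier results of these data known. As alternatives, scaling was by RLE or upper quartile, the count filter was dropped or set to CPM above 1 in at least 3 libraries, the tool was DESeq2 1.42.0 or limma-voom (limma 3.58.1), and the fits were repeated with a replicate block, with all 12 libraries together, at stricter thresholds and without each library in turn.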

Additional observations from a re-analysis of the deposited data

Results flagged for a closer look

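In 4 genes the OX6 against WT effect differed between roots and shoots by the interaction test. The difference, root effect minus shoot effect on the log2 scale, was −1.05 for the sugar transport protein 1 gene LOC_Os07g37320, 0.607 for the polyol transporter 5 gene LOC_Os12g32760, −0.938 for the organic cation/carnitine transporter 2 gene LOC_Os07g37454 and −0.797 for the neutral/alkaline invertase 1 gene LOC_Os01g22900. The calls of LOC_Os07g37320 and LOC_Os01g22900 held under all 19 alternatives run, that of LOC_Os12g32760 under 9 and that of LOC_Os07g37454 under 5. Groups of 3 libraries are too small for a test of outlying libraries.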

How the results depend on the processing

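Each named gene called in a comparison kept its direction there under every alternative that gave it a value. The 3 members called in roots became 7 with no count filter, 5 with DESeq2, 0 in 1 fit of all 12 libraries, 1 at an adjusted p under 0.01 and 0 at a minimum 2-fold change. With 1 library left out they numbered 0 (without WT root replicate 1) to 4, and 1 without WT root replicate 2. The 6 called in shoots became 11 with no filter, 11 with DESeq2, 13 in the 12-library fit, 3 at an adjusted p under 0.01 and 1 at 2-fold, and 3 (without OX6 shoot replicate 2) to 11 (without WT shoot replicate 3) with 1 library left out. The 3 interaction calls became 1 with limma-voom, with the replicate block, under 0.01 and at 2-fold, and 1 to 6 with 1 library left out, 6 being without WT shoot replicate 3. Calls over all genes moved too. In roots 753 became 1113 with no filter, 1013 with DESeq2, 293 in the 12-library fit and 407 to 773 with 1 library left out. In shoots 1481 became 2220, 2027, 2459 and 708 to 1877 in that order. The 572 interaction calls became 482 with limma-voom, 471 with the replicate block and 382 to 701 with 1 library left out. The shifts in member counts are therefore no result about the family, and their cause was not tested. The 78 organ calls ranged from 56 at 2-fold to 81 and from 74 to 79 with 1 library left out. No pairing by replicate number was detected: same-numbered libraries correlated at −0.134 to 0.121 in their deviations from the group means. Libraries of different number correlated at −0.162 to 0.151. Deviations from means of 3 libraries say little, so pairing by number was not excluded. With the number as a block, 4 members were called in roots (the 3 and SWEET3a, LOC_Os05g12320, adjusted p 0.0483), 6 in shoots (5 of the 6, without ERD6-like 16, LOC_Os03g24860, at 0.0641, and with SWEET13, LOC_Os12g29220, at 0.0164), 1 in the interaction and 77 between organs. With 3 libraries per group, effects near those of the smallest calls may be missed, and members with few counts were not testable.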
